A study of Homo sapiens with 3 samples.

Results

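Genes for lysosomal enzymes and membrane proteins were followed in A549 cells, a human lung adenocarcinoma line, after transfection of the strands of the *miR-139* precursor. The set held 56 genes, namely 31 hydrolases, 12 subunits of the proton pump, 7 membrane proteins, 3 lipid-binding cofactors and the transcription factors *TFEB*, *TFE3* and *MITF*. A probe belonged to a gene when the RefSeq accession that the array gives for it belonged to that gene's symbol. By this rule 73 probes found 56 of the 56 genes, among 22439 genes with a RefSeq symbol on the array.

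Total RNA was hybridised to 3 Agilent arrays of 1 colour. The mock array held A549 cells given the transfection reagent alone, and the others held A549 cells given the same reagent together with a precursor, either of *miR-139-5p*, the guide strand, or of *miR-139-3p*, the passenger strand. The methods state 10 nM for every miRNA precursor. The study searched among genes lower after *miR-139-3p* for those that this strand controls, and *miR-139-5p* was its partner strand. With 1 array for each condition there was no replicate, so the values carry no p-value and no difference was tested. The mock array served as the reference of both miRNAs, so the values against mock share it.

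Lysosomes are acidic organelles in which soluble hydrolases break down proteins, glycans and lipids. The vacuolar proton pump (V-ATPase) acidifies them, with a V0 sector in the membrane that carries protons and a V1 sector on the cytosolic side that splits ATP, while highly glycosylated membrane proteins line the organelle. *TFEB*, *TFE3* and *MITF* are basic helix-loop-helix factors that bind E-box motifs in the promoters of many of these genes. Loss of single hydrolases or cofactors causes the lysosomal storage diseases.

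The transfected strands come from one hairpin on chromosome 11 and are shown because their seeds, bases 2 to 8 from the 5′ end and in capitals here, differ from each other. The mature sequences are those of RefSeq on GRCh38.p14, where *miR-139-5p* lies at chr11:72615102-72615124 and *miR-139-3p* at chr11:72615066-72615088, both on the minus strand.
miR-139-5p: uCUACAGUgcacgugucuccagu
miR-139-3p: uGGAGACGcggcccuguuggagu

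The values were spot signals with the background subtracted. They are printed unscaled, whereas log2 fold changes were taken after dividing each array by its 75th percentile, which was 93.6 on the mock array, 88.9 after *miR-139-5p* and 81.0 after *miR-139-3p*. Slide 1 carried mock together with *miR-139-5p*, and slide 2 carried *miR-139-3p*, so slide and transfection cannot be told apart for *miR-139-3p*. Between 48.1% and 53.1% of the 60901 spots were well above background, and 0 were saturated. The software assigned a spot well above background a median error of 10.1% of its signal, which comes to 0.21 on the log2 scale for a difference between 2 single spots. Of 8 markers of A549 cells, 8 were well above background on every array. On the log2 scale 5 of them, or 62.5%, were over 0.5 lower after *miR-139-3p*, next to 27.9% of all genes. After *miR-139-5p* it was 4, or 50% next to 12.3%, and 0 were over 0.5 higher with either strand. Of 9 markers of leukocytes, endothelium and fibroblasts, *PECAM1*, *COL3A1* and *LUM* were well above background on no array. The brightest probes of these 9 genes summed to a signal of 340.1 on the mock array, 345 after *miR-139-5p* and 141 after *miR-139-3p*. Without *CD14*, which was 1.98 lower after *miR-139-3p* on the log2 scale, the sums were 47.8, 40.6 and 77.3. Only 6 of the 9 genes could be set against mock after *miR-139-3p*, 1 of them by a bound alone. Of these 6, 4 were over 0.5 higher, or 66.7% next to 26.5% of all genes. The 4 were *PTPRC*, *CDH5*, *VWF* and *PDGFRB*, all dim, with brightest signals from 6.28 to 14.5 on the mock array. The part of these markers in the results was not tested. The reference gene *GAPDH* was 0.55 lower after *miR-139-3p* and 0.06 lower after *miR-139-5p*, and *ACTB* lay at -0.11 and 0.04.

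Lysosomal genes lay on both sides of mock after *miR-139-3p*, with hydrolases at both ends and no common shift. The threshold was set at 0.5 on the log2 scale. Against mock, 54 members had a value, of which 9 were lower past the threshold, next to 27.9% of the 15572 genes with a value. In the other direction 12 were higher, next to 26.5% of all genes. The 15572 include 1196 genes known by a bound alone, and over the 14376 genes measured on both arrays the shares were 28.9% and 23.9%. The members past the threshold were thus 38.9% of those with a value, compared with 54.4% of all genes. The median of the members was 0.03 and that of all genes -0.05. The lowest member was *IDS* at -1.20 and the highest *IDUA* at 1.12, nearly level with *ATP6V1H* at 1.11.

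After *miR-139-5p*, more members lay below the threshold than above it. Of 54 members with a value, 9 were lower, or 16.7%, next to 12.3% of 15018 genes, and 3 were higher, or 5.56%, next to 10.7%. The median was -0.08 for the members and -0.01 for all genes. The values ran from -1.51 for *ATP6V1C1* to 0.67 for *LIPA*.

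The balance between higher and lower members depended on how the arrays were scaled. After *miR-139-3p*, 57.1% of the members past the threshold were higher, next to 48.8% of all genes past it. With a percentile of the probes detected on every array the split was 18 higher and 6 lower, with quantile normalization 19 and 6, and in the log2 table of the authors 17 and 8. It turned to 5 higher and 10 lower with E1A spike-in scaling and to 4 and 11 without scaling. The share of higher among all genes past the threshold was 58.7%, 43.3%, 41.8%, 35.1% and 34.2% under these settings in turn. After *miR-139-5p* the split of 3 higher and 9 lower became 5 and 6 with spike-in scaling, where the share of higher among all genes past it went from 46.6% to 66.7%. These scalings moved the median of all genes as well, by 0.14 with the percentile over detected probes, -0.19 with the spike-ins and -0.21 without scaling for *miR-139-3p*, and by 0.12 with the spike-ins for *miR-139-5p*. Such scalings add 1 constant to every gene, so they leave the gap between the medians of the members and of all genes where it was. Under the other alternatives the gap of 0.08 for *miR-139-3p* ran from -0.05 without a filter on dim probes to 0.19 with quantile normalization, and that of -0.08 for *miR-139-5p* ran from -0.20 to -0.06.

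**Figure D1:**
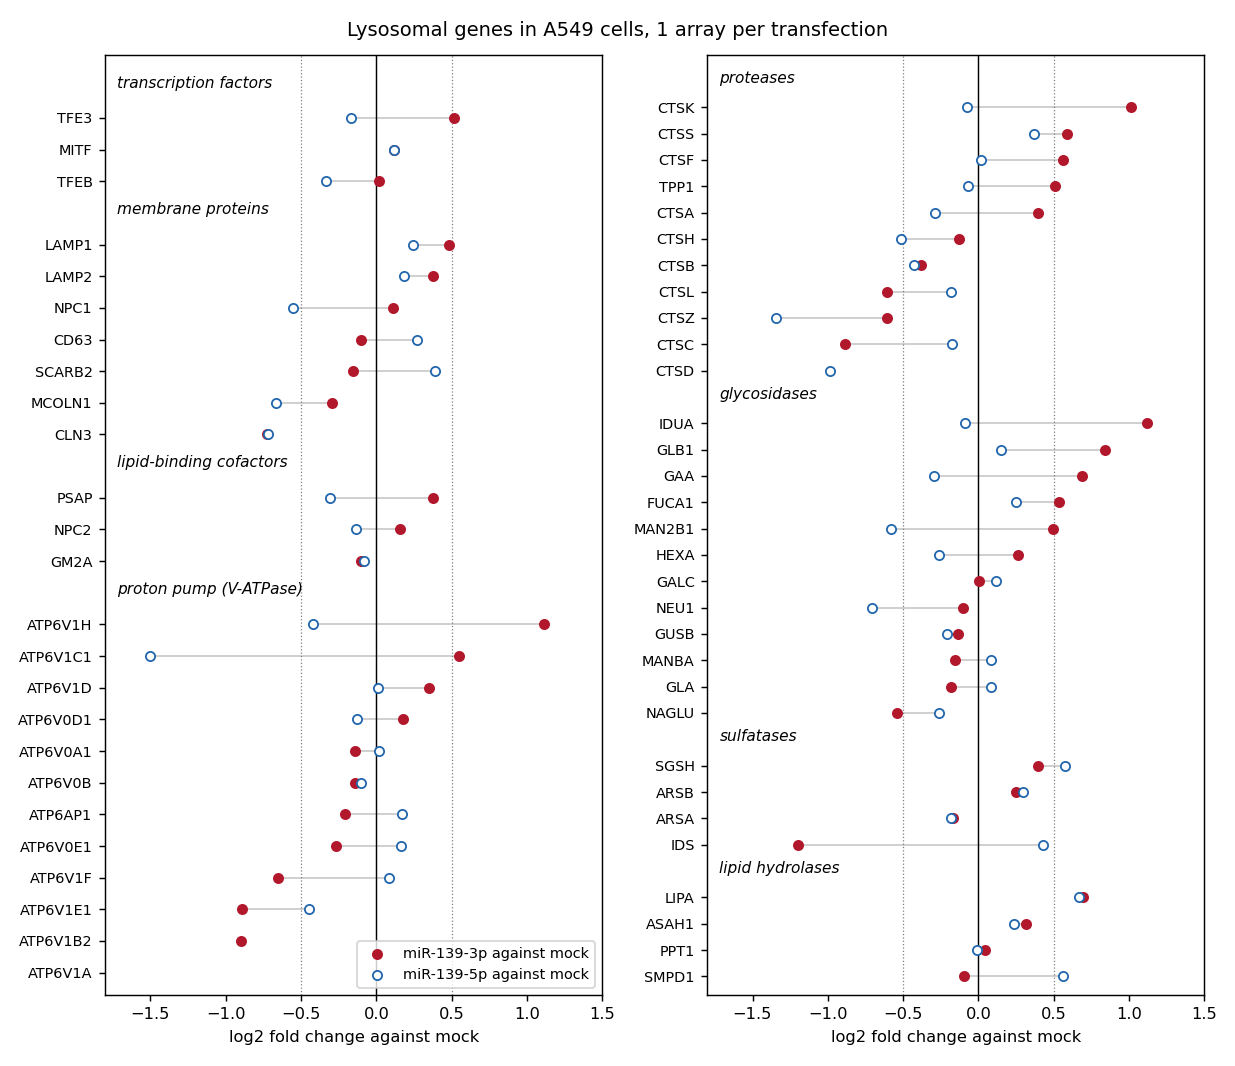
Log2 fold change against mock (x axis, 1 array per transfection) for each member, ordered by role, with filled points for *miR-139-3p* and open points for *miR-139-5p* and dotted lines at the threshold of 0.5 in either direction. *IDS*, at -1.20 and 0.43, and *ATP6V1C1*, at 0.55 and -1.51, show the widest gaps between the strands, while *CLN3* and *LIPA* hold nearly the same value for both. A missing point is a spot left out as an outlier.

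The roles differed little in their medians, with wide ranges inside each. After *miR-139-3p* the median was 0.15 over 30 hydrolases, -0.14 over 11 pump subunits and -0.10 over 7 membrane proteins. None of these signs held under every alternative, since the hydrolases were at -0.06 without scaling, and the pump subunits and the membrane proteins at 0.10 each with quantile normalization. Hydrolases, which are 31 of the 56 members, held 5 of the 9 lower and 9 of the 12 higher ones. Of 30 with a value, 16.7% were lower, next to 27.9% of all genes, and 30% higher, next to 26.5%. After *miR-139-5p* the medians were -0.07 over 31 hydrolases, -0.05 over 10 pump subunits and 0.18 over the membrane proteins. These signs turned too, to 0.04 and 0.07 with spike-in scaling and to -0.12 with the brightest probe of each gene. Within the hydrolases, the proteases and the glycosidases had negative medians after *miR-139-5p*, at -0.18 and -0.15, whereas the 4 sulfatases and the 4 lipid hydrolases had positive ones, at 0.36 and 0.40.

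**Figure D2:**
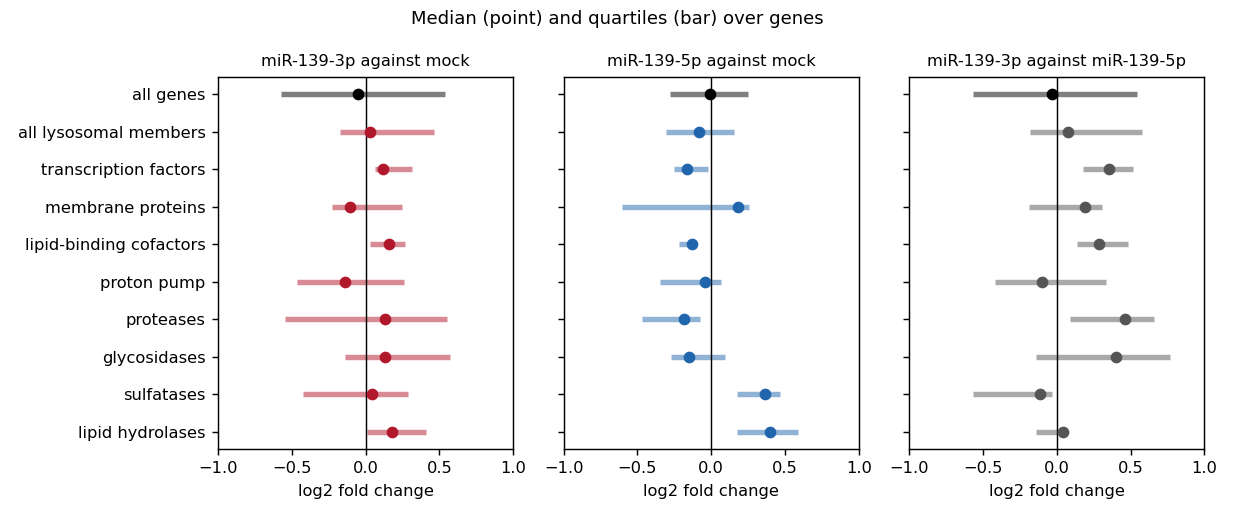
Median (points) and quartiles (bars) of the log2 fold change on the x axis, over all genes with a RefSeq symbol and over the members by role, with 1 panel for each comparison. All genes spread from -0.57 to 0.54 between quartiles after *miR-139-3p* and from -0.28 to 0.25 after *miR-139-5p*, and the medians of the roles lie inside these ranges except for the sulfatases and lipid hydrolases after *miR-139-5p*.

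Of the transcription factors, *TFE3* was higher after *miR-139-3p* on both of its probes. One probe gave a signal of 318 on the mock array, 286 after *miR-139-5p* and 416 after *miR-139-3p*, and the other probe gave 254, 202 and 297. The mean over both probes was 0.52 after *miR-139-3p* (SD between probes 0.12, 2 probes) and -0.17 after *miR-139-5p* (SD 0.12). *TFE3* therefore passed the threshold after *miR-139-3p*, but its value ran down to 0.31 over the alternatives.

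*TFEB*, the best-known activator of lysosomal genes, had probes that went opposite ways after *miR-139-3p*. One probe read 1080 on the mock array, 1000 after *miR-139-5p* and 1351 after *miR-139-3p*, a difference of 0.53 for *miR-139-3p*. The other read 380, 232 and 232, a difference of -0.50 for *miR-139-3p*. The mean of 0.02 for *miR-139-3p* (SD 0.73) is thus no summary of either probe. After *miR-139-5p* the probes were at -0.04 and -0.64, and the mean of -0.34 (SD 0.42) likewise describes neither.

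*MITF*, which is best known in melanocytes, differed little from mock. One of its 3 probes read 275 on the mock array, 283 after *miR-139-5p* and 237 after *miR-139-3p*. The mean over its probes was 0.11 after *miR-139-3p* (SD 0.28) and 0.12 after *miR-139-5p* (SD 0.06). After *miR-139-3p* the probes were at -0.0045, 0.44 and -0.09, so the mean was above 0 through 1 probe.

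Among the membrane proteins, *CLN3* was lower with both strands. This protein of the lysosomal membrane is mutated in juvenile Batten disease. Its signal was 156 on the mock array, 90.2 after *miR-139-5p* and 81.7 after *miR-139-3p*. Both miRNAs left it at close to the same level, with scaled signals at 60.8% and 60.5% of mock. The log2 differences were -0.72 and -0.72, and both stayed past the threshold under every alternative run at it.

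*MCOLN1*, the calcium channel TRPML1, and *NPC1*, the cholesterol exporter, were lower past the threshold after *miR-139-5p*. The *MCOLN1* signal was 35.9 on the mock array, 21.5 after *miR-139-5p* and 25.3 after *miR-139-3p*, so this dim probe was highest on the mock array. Its log2 differences were -0.66 after *miR-139-5p* and -0.30 after *miR-139-3p*. With normexp background correction, which compresses dim probes, the first was -0.15, and over the alternatives the second ran down to -0.56, past the threshold. *NPC1* was at -0.55 after *miR-139-5p*, or -0.42 with normexp, and at 0.11 after *miR-139-3p*. Whether the strands differ in these genes was not tested, since each had 1 array.

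*LAMP1* and *LAMP2* encode the most abundant glycoproteins of the lysosomal membrane. *LAMP1* gave 3930 on the mock array, 4423 after *miR-139-5p* and 4756 after *miR-139-3p*. Its log2 difference was 0.24 after *miR-139-5p* and 0.48 after *miR-139-3p*, just within the threshold, and the second ran up to 0.62 over the alternatives.

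The mean of *LAMP2* hid a wide spread between its 3 probes, called here LAMP2A, LAMP2B and LAMP2C after the splice forms to which general knowledge, and no annotation used here, assigns their accessions. LAMP2A is the receptor of chaperone-mediated autophagy. The probe so named gave 100 on the mock array, 133 after *miR-139-5p* and 265 after *miR-139-3p*, a log2 difference of 0.48 and of 1.61. The LAMP2B probe gave 154, 167 and 127, with differences of 0.19 and -0.08, and the LAMP2C probe gave 879, 771 and 575, with differences of -0.12 and -0.40. Only the LAMP2A probe was thus past the threshold after *miR-139-3p*, while the gene mean was 0.38 (SD 1.08). The mean was above 0 through that probe alone, and with the brightest probe in its place the gene was at -0.40 after *miR-139-3p* and -0.12 after *miR-139-5p*. Whether each probe is specific to its splice form was not tested.

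The other membrane proteins stayed within the threshold against mock. *CD63*, a tetraspanin of lysosomes and exosomes, gave 13173 on the mock array, 15115 after *miR-139-5p* and 10606 after *miR-139-3p*. Its log2 differences were 0.27 after *miR-139-5p* and -0.10 after *miR-139-3p*. *SCARB2*, the receptor that carries glucocerebrosidase to lysosomes, was at 0.39 after *miR-139-5p* and -0.15 after *miR-139-3p*.

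Subunits of the proton pump lay on both sides of mock after *miR-139-3p*. Of 11 with a value, 3 were lower, or 27.3%, next to 27.9% of all genes, and 2 were higher, or 18.2%, next to 26.5%. Each of the 5 belonged to V1, although V0 genes outside the set, described further on, passed the threshold too. The V0 subunits *ATP6V0A1*, *ATP6V0B*, *ATP6V0D1* and *ATP6V0E1* ran from -0.27 to 0.18, and the accessory subunit *ATP6AP1* was at -0.21. After *miR-139-5p* the V0 subunits ran from -0.13 to 0.16 and *ATP6AP1* was at 0.17. Of these 4 V0 members, 0 passed the threshold with either strand.

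*ATP6V1C1*, the C subunit that joins V1 to V0, was the member farthest below mock after *miR-139-5p*. Its probes gave 642 and 613 on the mock array, 213 and 207 after *miR-139-5p*, and 1217 and 518 after *miR-139-3p*. Both probes were lower after *miR-139-5p*, with a mean of -1.51 (SD 0.02), or 35.2% of mock. After *miR-139-3p* they part, one at 1.13 and the other at -0.04, so the gene mean of 0.55 (SD 0.83) rests on 1 probe, and it ran down to 0.34 over the alternatives. *ATP6V1H*, the H subunit, gave 76.2 on the mock array, 54.1 after *miR-139-5p* and 142 after *miR-139-3p*. It was thus 2.16-fold higher after *miR-139-3p* (1.11 on the log2 scale) and at -0.42 after *miR-139-5p*.

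The E, F and B subunits were lower after *miR-139-3p*. *ATP6V1E1*, part of the peripheral stalk, gave 307 on the mock array, 213 after *miR-139-5p* and 143 after *miR-139-3p*, or log2 differences of -0.45 and -0.89. *ATP6V1F*, part of the rotor, gave 5521, 5551 and 3035, or 0.08 and -0.65. It was below mock after *miR-139-3p* alone, by a value that was -0.48 with quantile normalization. *ATP6V1B2*, a subunit of the ring that binds ATP, gave 414 on the mock array and 192 after *miR-139-3p*, a difference of -0.90. Its spot on the *miR-139-5p* array was an outlier and left no value, and with outlier spots kept the value was -0.16. *ATP6V1A*, the catalytic subunit, had outlier spots on both the mock and the *miR-139-5p* array and gave 1184 on the *miR-139-3p* array. With those spots kept, its values were -0.10 after *miR-139-3p* and 0.24 after *miR-139-5p*. *ATP6V1D* was within the threshold, at 0.35 and 0.01.

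Cathepsins, the main proteases, lay on both sides of mock after *miR-139-3p*. Of 10 proteases with a value, 4 were higher, or 40% next to 26.5% of all genes, and 3 lower, or 30% next to 27.9%. After *miR-139-5p*, 3 of 11 were lower, or 27.3% next to 12.3% of all genes, 0 were higher, and 9 were below 0.

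*CTSK*, the collagen-degrading cathepsin K of osteoclasts, had the highest log2 fold change of the member proteases after *miR-139-3p*. It gave 129 on the mock array, 117 after *miR-139-5p* and 226 after *miR-139-3p*, so *miR-139-3p* stood alone at 2.02-fold mock (1.01 on the log2 scale). *CTSF* was at 0.56 after *miR-139-3p*, down to 0.35 over the alternatives, and at 0.02 after *miR-139-5p*. *TPP1*, the tripeptidyl peptidase lost in a late infantile storage disease, was at 0.51 after *miR-139-3p* (SD 0.32, 2 probes), down to 0.30 over the alternatives, and -0.07 after *miR-139-5p*. *CTSS*, known from antigen presentation, was at 0.59 after *miR-139-3p*, but its signals were dim, from 8.86 to 11.5, and it was 0.13 with normexp.

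*CTSC*, the dipeptidyl peptidase that activates granule serine proteases, was at -0.89 after *miR-139-3p*, with 3 probes that disagree (SD 1.1). They gave 257, 106 and 44.7 on the mock array, 191, 74.7 and 50.8 after *miR-139-5p*, and 107, 24.7 and 47.2 after *miR-139-3p*. The first and second probe were 1.05 and 1.89 lower after *miR-139-3p*, and the third was at 0.29. With normexp the mean after *miR-139-3p* was -0.50, just within the threshold. The value after *miR-139-5p* was -0.17 (SD 0.38).

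*CTSZ* was lower with both strands and most after *miR-139-5p*. This carboxypeptidase, cathepsin X, gave 266 on the mock array, 99.7 after *miR-139-5p* and 151 after *miR-139-3p*. Its log2 differences were -1.34 after *miR-139-5p*, or 39.4% of mock, and -0.61 after *miR-139-3p*. Over the alternatives the first ran up to -0.83 and the second up to -0.33. *CTSH* was at -0.51 after *miR-139-5p*, up to -0.40 over the alternatives, and -0.13 after *miR-139-3p*.

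*CTSB*, *CTSD* and *CTSL* are the major cathepsins of most cells. *CTSD*, the aspartic protease, gave 1588 on the mock array and 761 after *miR-139-5p*, a log2 difference of -0.99 that stayed past the threshold under every alternative run at 0.5. The spot on the *miR-139-3p* array was an outlier, and with outlier spots kept the value there was -0.41. *CTSL* gave 6021 on the mock array, 5042 after *miR-139-5p* and 3425 after *miR-139-3p*. It was at -0.61 after *miR-139-3p*, which ran up to -0.47 over the alternatives, and at -0.18 after *miR-139-5p*. *CTSB* gave 624, 441 and 415, or -0.43 after *miR-139-5p* and -0.38 after *miR-139-3p*. Both were within the threshold, and the second ran down to -0.59 over the alternatives. All 3 lay below mock wherever they were measured.

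*CTSA*, the protective protein that shields *GLB1* and *NEU1*, had probes at 0.74 and 0.05 after *miR-139-3p* and at -0.03 and -0.55 after *miR-139-5p*.

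The glycosidases, which trim sugars from glycoproteins, glycolipids and glycosaminoglycans, counted 4 higher and 1 lower of 12 after *miR-139-3p*, or 33.3% and 8.33% next to 26.5% and 27.9% of all genes. After *miR-139-5p*, 2 were lower, or 16.7% next to 12.3%, and 0 were higher. *IDUA*, which removes iduronic acid from heparan and dermatan sulfate, gave 134 on the mock array, 120 after *miR-139-5p* and 252 after *miR-139-3p*. It was 2.17-fold mock after *miR-139-3p* (1.12 on the log2 scale) and at -0.09 after *miR-139-5p*. *GLB1*, the beta-galactosidase also used as a stain for senescence, gave 789, 831 and 1225, or 0.15 after *miR-139-5p* and 0.84 after *miR-139-3p*. Both genes held past the threshold after *miR-139-3p* under every alternative run at 0.5.

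*GAA*, the acid alpha-glucosidase lost in Pompe disease, gave 3478 on the mock array, 2689 after *miR-139-5p* and 4854 after *miR-139-3p*. It lay on opposite sides of mock, at -0.30 after *miR-139-5p* and 0.69 after *miR-139-3p*, and the second value ran down to 0.48 without scaling. *MAN2B1*, the lysosomal alpha-mannosidase, gave 97.1, 61.7 and 119. It was lower after *miR-139-5p* at -0.58, or -0.31 at the weakest over the alternatives, and its 0.50 after *miR-139-3p* was just under the threshold and ran up to 0.63 over the alternatives.

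*NEU1*, the sialidase, gave 593 on the mock array, 345 after *miR-139-5p* and 477 after *miR-139-3p*. It was thus at -0.71 after *miR-139-5p*, or 61.2% of mock, and at -0.10 after *miR-139-3p*. *NAGLU*, of heparan sulfate breakdown, was the 1 lower glycosidase after *miR-139-3p*, at -0.54, and *FUCA1*, the fucosidase, was higher at 0.53. Both calls ended under 3 alternatives each, with values up to -0.31 for *NAGLU* and down to 0.32 for *FUCA1*. *GLA*, *HEXA*, *GUSB*, *GALC* and *MANBA* stayed between -0.18 and 0.26 after *miR-139-3p* and between -0.26 and 0.11 after *miR-139-5p*.

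*IDS*, the iduronate sulfatase lost in Hunter disease, was the member farthest below mock after *miR-139-3p*. Its 2 probes with a value on all arrays gave 507 and 346 on the mock array, 724 and 457 after *miR-139-5p*, and 181 and 138 after *miR-139-3p*. Both were highest after *miR-139-5p* and lowest after *miR-139-3p*. The mean difference was -1.20 after *miR-139-3p* (SD 0.11, 2 probes), or 43.6% of mock, and 0.43 after *miR-139-5p* (SD 0.13, 4 probes). On the same 2 probes as for *miR-139-3p*, the differences after *miR-139-5p* were 0.59 and 0.48. The other 2 probes had outlier spots on the *miR-139-3p* array, and with these kept the mean was -1.39. *IDS* and *IDUA* act on neighbouring steps of the same glycosaminoglycans and lay at opposite ends of the members after *miR-139-3p*. *SGSH*, another sulfatase of heparan sulfate, was at 0.58 after *miR-139-5p* and 0.40 after *miR-139-3p*, and *ARSA* and *ARSB* stayed between -0.18 and 0.30 with both.

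*LIPA*, the acid lipase that frees cholesterol from its esters, was the 1 member higher past the threshold with both strands. It gave 1279 on the mock array, 1934 after *miR-139-5p* and 1795 after *miR-139-3p*, or 1.59-fold and 1.62-fold mock after scaling. The log2 differences were 0.67 and 0.70, and the second was 0.49 without scaling. *SMPD1*, the acid sphingomyelinase, was at 0.56 after *miR-139-5p* and -0.10 after *miR-139-3p*, from signals of 31.6 to 54.7. The first value was under the threshold with normexp and without scaling, and ran down to 0.30. The ceramidase *ASAH1* was at 0.24 and 0.32, and the thioesterase *PPT1* at -0.01 and 0.04.

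The cofactors were within the threshold against mock. *PSAP*, the precursor of the saposins, gave 2760 on the mock array, 2279 after *miR-139-5p* and 3189 after *miR-139-3p* on one of its probes. Both of its probes were below mock after *miR-139-5p* and above it after *miR-139-3p*, with means of -0.31 (SD 0.15) and 0.37 (SD 0.06), and the second ran up to 0.58 over the alternatives. *NPC2*, which hands cholesterol to *NPC1*, was at -0.13 and 0.16. *GM2A*, the activator of *HEXA*, was at -0.08 and -0.10, with probes that disagree (SD 0.41 and 0.56).

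Of the members, 44 rested on 1 probe and 12 on several. After *miR-139-3p*, 5 of these 12 had an SD above 0.5 between their probes, and 7 had probes on both sides of 0. After *miR-139-5p*, 0 had such an SD and 5 had probes on both sides of 0. Over all genes with several probes, the median SD was 0.28 over 3684 genes after *miR-139-3p* and 0.15 over 3743 genes after *miR-139-5p*.

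**Figure D3:**
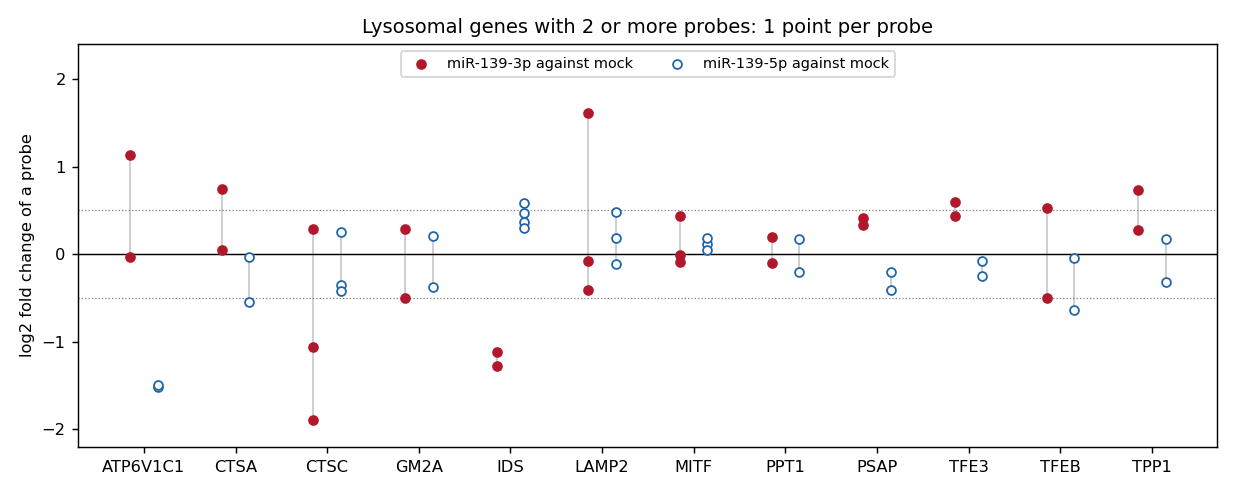
Log2 fold change against mock (y axis) of each probe of the 12 members with several probes, filled for *miR-139-3p* and open for *miR-139-5p*, with a line over their range and dotted lines at 0.5 in either direction. *ATP6V1C1*, *CTSC*, *LAMP2* and *TFEB* spread widely after *miR-139-3p*, while the drawn probes of *IDS* lie close together with each strand. For *miR-139-3p* only 2 of the 4 *IDS* probes are drawn. The others were left out as outlier spots, and with these kept they were at -1.26 and -1.92.

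The probes of *NPC1*, *GUSB* and *FUCA1* were spotted several times on each array, which gives the technical spread within an array and none between cultures. *NPC1* had 10 spots, with signals from 256 to 303 on the mock array, 162 to 195 after *miR-139-5p* and 249 to 275 after *miR-139-3p*. Scaled log2 means were 1.56 ± 0.07 on the mock array, 1.00 ± 0.08 after *miR-139-5p* and 1.67 ± 0.04 after *miR-139-3p* (SD, 10 spots). The spots after *miR-139-5p* did not overlap those of mock, and those after *miR-139-3p* did.

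*FUCA1*, with 9 spots after outliers, ran from 148 to 173 on the mock array, 155 to 195 after *miR-139-5p* and 194 to 209 after *miR-139-3p*. The scaled means were 0.80 ± 0.08, 1.04 ± 0.10 and 1.33 ± 0.04, and the spots after *miR-139-3p* alone stood clear of mock. *GUSB*, the beta-glucuronidase often taken as a reference gene, had scaled means of 3.69 ± 0.05 on the mock array, 3.48 ± 0.06 after *miR-139-5p* and 3.55 ± 0.06 after *miR-139-3p* over 10 spots. Its signals ran from 1150 to 1288 on the mock array, 905 to 1040 after *miR-139-5p* and 890 to 1000 after *miR-139-3p*. Its difference of -0.21 after *miR-139-5p* lay beyond the spread of its spots and within the threshold.

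**Figure D4:**
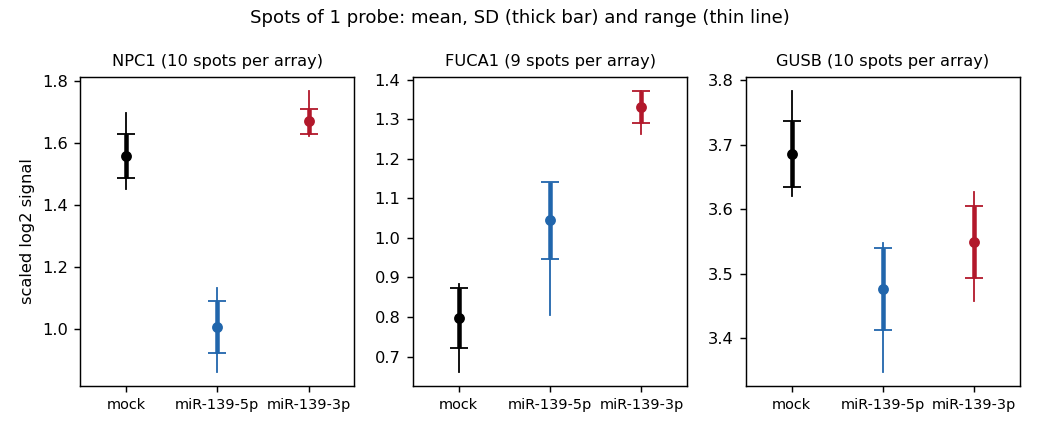
Scaled log2 signal (y axis, log2 of the signal over the 75th percentile of its array) of *NPC1*, *FUCA1* and *GUSB* on the 3 arrays, with the mean, the SD over 9 or 10 spots as a thick bar and the range as a thin line. The y axes do not start at 0 and differ between panels. *NPC1* stands lower after *miR-139-5p* and *FUCA1* higher after *miR-139-3p* than any spot of mock.

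Set directly against each other, *miR-139-3p* left more members higher than *miR-139-5p* did. Of 53 members with a value, 16 were higher, next to 26.4% of 15428 genes, and 5 were lower, next to 27.9%. The median was 0.08 for the members and -0.04 for all genes, or 0.30 and -0.06 with quantile normalization, where 20 members were higher and 4 lower. In the log2 table of the authors the medians were 0.24 and -0.09. Of the members past the threshold 76.2% were higher, but this was 31.6% with spike-in scaling and 54.5% without scaling, and 86.4% with the percentile over detected probes. Among all genes past it the share was 48.6%, and 29.0%, 39.5% and 60.5% under these settings. Between these arrays the slides differ too.

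The widest of these differences belonged to *ATP6V1C1* at 2.05 (SD 0.84), *ATP6V1H* at 1.53 and *IDUA* at 1.20 among the higher, and to *IDS* at -1.73 (SD 0.19) and *ATP6V1F* at -0.74 among the lower. *CTSK* at 1.09, *MAN2B1* at 1.08 and *GAA* at 0.99 followed, each with a value of 0.66 or more over the alternatives. Of 12 glycosidases 6 were higher and 0 lower, and of 10 proteases 5 were higher and 1 lower, so that 50% of each were higher, next to 26.4% of all genes. With spike-in scaling the glycosidases *GLB1*, *HEXA* and *NEU1* and the proteases *TPP1*, *CTSA*, *CTSF* and *CTSZ* fell within the threshold. In these roles *GAA*, *IDUA*, *MAN2B1* and *CTSK* stayed past it there, next to 17.5% of all genes. The lower members outside these roles were *IDS*, *ATP6V1F*, *SMPD1* and *SCARB2*, and the lower protease was *CTSC*. Over the alternatives *SMPD1*, *SCARB2* and *CTSC* ran up to -0.31, -0.27 and -0.35. *TFE3* was higher on both probes, at 0.68 (SD 0.01), and 0.37 with spike-in scaling.

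E-box motifs in the promoters were searched because *TFEB*, *TFE3* and *MITF* bind them. RefSeq promoter sequences on GRCh38.p14, each of 300 bases from 250 before to 50 after a start, were at hand for 61 starts of 40 members. The core CACGTG reads the same on both strands, and it was found in 12 of these 40 members and in 8.77% of 27305 genes (7.25% of 35087 promoters). The longer TCACGTGA, which also reads the same on both strands and contains the core, was found in 6 of the 40 members and in 1.18% of genes (0.98% of promoters). A match is a description of these letters, not a site.

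The stretches around the longer motif are shown for the 6 members that hold it, each on the gene's own strand with the motif in capitals. The first copy begins 60 bases before the annotated start for *ATP6V0D1* (chr16:67481190-67481237, minus strand), 2 for *CLN3* (chr16:28492049-28492096, minus), 26 for *CTSA* (chr20:45891289-45891336, plus), 77 for *GAA* (chr17:80101484-80101576, plus), 29 for *LAMP1* (chr13:113297190-113297264, plus) and 42 for *MCOLN1* (chr19:7522562-7522636, plus). *GAA*, *LAMP1* and *MCOLN1* hold 2 copies each.
ATP6V0D1: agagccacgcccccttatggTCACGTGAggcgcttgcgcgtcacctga
CLN3: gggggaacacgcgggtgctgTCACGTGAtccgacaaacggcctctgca
CTSA: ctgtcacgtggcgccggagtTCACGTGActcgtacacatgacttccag
GAA: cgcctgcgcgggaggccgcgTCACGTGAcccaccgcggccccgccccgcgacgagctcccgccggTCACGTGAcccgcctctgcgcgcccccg
LAMP1: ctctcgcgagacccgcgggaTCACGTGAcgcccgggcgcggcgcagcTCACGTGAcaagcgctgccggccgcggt
MCOLN1: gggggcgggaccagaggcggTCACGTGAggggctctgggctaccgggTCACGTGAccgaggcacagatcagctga

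These 6 members did not share 1 direction. After *miR-139-5p*, 5 were below 0, from -0.72 for *CLN3* to -0.13 for *ATP6V0D1*, and *LAMP1* was at 0.24. After *miR-139-3p*, *CLN3* and *MCOLN1* were below 0 and the other 4 above it, up to 0.69 for *GAA*. Over the 12 members with the core motif, which add *ARSB*, *ATP6V0B*, *CD63*, *CTSD*, *CTSF* and *NEU1*, the median was -0.21 after *miR-139-5p* and 0.18 over 11 members after *miR-139-3p*. Over the 28 members with a promoter sequence and without the motif, the medians were -0.04 and -0.05. The 16 members with no promoter sequence here had medians of -0.13 over 14 with a value and 0.32 over 15. These medians are descriptions, and no test of their difference was made.

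Further lysosomal genes were read from lists compiled from general knowledge. The lists overlap, since *HGSNAT* was counted among both hydrolases and membrane proteins. *SLC38A9* was counted among both membrane proteins and the genes that act on *TFEB*, described further on. Of 35 other genes for hydrolases and their maturation, 32 had a value. After *miR-139-3p*, 11 were lower and 7 higher, or 34.4% and 21.9% next to 27.9% and 26.5% of all genes, with a median of -0.23. The widest were *CTSO* at 1.29, the asparaginyl protease *LGMN* at -1.26, *DPP7* at 1.24, *CTSV* at -1.22, *GNPTG* at 1.18, which helps to tag enzymes with mannose 6-phosphate, and *GALNS* at -1.11. *CTSV* was among the genes that the study picked on these arrays, so its direction is not independent. After *miR-139-5p*, 5 were lower and 3 higher, or 15.6% and 9.38% next to 12.3% and 10.7%, with a median of -0.01, and the widest were *GALNS* at -0.74, *SUMF1*, which activates sulfatases, at -0.72 and *DNASE2* at -0.66, followed by *CTSO* at 0.64, *PPT2* at 0.56 and *AGA* at -0.56.

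Of 30 other membrane proteins, 27 had a value. After *miR-139-3p*, 4 were lower and 8 higher, or 14.8% and 29.6% next to 27.9% and 26.5% of all genes, with a median of 0.24. *LAMP3* was at 2.47 and the channel *MCOLN3* at 2.08, from dim probes of 5.45 and 8.31 on the mock array and 26.1 and 30.4 after *miR-139-3p*. *SIDT2* was at -1.46, *SLC29A3* at -1.42, the cystine exporter *CTNS* at 1.20 and the channel *TPCN1* at -1.04. After *miR-139-5p*, 3 were lower and 4 higher, or 11.1% and 14.8% next to 12.3% and 10.7%, with a median of -0.01. These include 2 bounds, for *LAMP3* and for *MCOLN3*, the latter at -0.63 and counted as lower, because neither was well above background there. The widest was *LAPTM4B* at -1.26 over 3 probes, with *CD164* at 0.67, *SLC36A1* at 0.65, *TMEM192* at -0.60, *LAPTM4A* at 0.60 and *MCOLN2* at 0.58.

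Of 20 other pump subunits and assembly factors, 15 were found on the array and 14 had a value. After *miR-139-3p*, 3 were lower and 5 higher, or 21.4% and 35.7% next to 27.9% and 26.5% of all genes, with a median of -0.06. One of the lower genes, *ATP6V0A4* of the V0 sector, had a bound of -1.40, since it was not well above background after *miR-139-3p*. *ROGDI* was at -1.04 and *WDR7*, another part of the RAVE assembly complex with *ROGDI*, at -0.17. *ATP6V0E2*, another V0 subunit, was at -0.85, *RNASEK* at 0.82, *ATP6V1G1* at 0.69, *DMXL1* at 0.67 and *ATP6V1G2* at 0.51. After *miR-139-5p*, 3 were lower and 3 higher, or 21.4% each way next to 12.3% and 10.7%, with a median of 0.08. *WDR7* was at -0.98, *ATP6V0A4* at -0.82, *DMXL1* at 0.77, *ATP6V1C2* at 0.64, *ATP6V1B1* at -0.60 and *ATP6V1G1* at 0.56.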

How the data were processed

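The series holds 3 Agilent arrays of 1 colour with RNA of A549 cells, 1 for each condition. The intensity values deposited by the authors came from Feature Extraction 12.1.1.1 per the file headers, 1 for each spot, with the background subtracted, no normalization between arrays and an estimated error. The authors also deposited a log2 value per probe, which equalled the quantile-normalized log2 signals with spots averaged to within 0.15 for every probe well above background, and served as an alternative.

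The processed signal was divided by the 75th percentile of its array over spots other than controls and put on the log2 scale. Outlier spots were left out, and a probe counted as well above background where at least 50% of its spots were. The value of a gene was averaged over those probes that were well above background on each array compared. Where this held on 1 array alone the gene got a bound, which applied to 0 members. Probes were named through the RefSeq annotation of GRCh38.p14, with versions removed. The array was designed on another build, so no coordinates of probes are given.

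The comparisons were each miRNA against mock and *miR-139-3p* against *miR-139-5p*. Shares of genes past the threshold of 0.5 were taken over the genes with a RefSeq symbol. Every member is named at least once, with signals for the 8 members farthest from 0 in each comparison, for *TFEB*, *TFE3*, *MITF*, *LAMP1*, *LAMP2*, *MCOLN1*, *CTSB*, *CTSD* and *CTSL*, and, as a choice made after seeing the values, for *CD63*, *PSAP*, *SMPD1*, *CTSS*, *ATP6V1A* and the members with repeated spots. For other lists the 6 genes farthest from 0 against mock are named, and *WDR7* beside *ROGDI* was named after its value was seen. The members and lists were chosen with earlier results of these data known, and the lists were not checked against a source. One marker gene of another cell type is not reported here. In all, 12 alternatives were run. The computation of fold changes and of genes past the threshold was tested on simulated data. Python 3.11.15, numpy 2.4.6, pandas 2.3.3 and matplotlib 3.10.9 were used, with R 4.3.3 and limma 3.58.1 for normexp (offset 50).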

Additional observations from a re-analysis of the deposited data

How the results depend on the processing

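No paired analysis was possible because each condition had 1 array. Of the members past the threshold, none changed sign under any alternative in any comparison. Past the threshold of 0.5 under every alternative that used it were 4 of 9 lower and 4 of 12 higher members for *miR-139-3p* against mock, 5 of 9 and 2 of 3 for *miR-139-5p* against mock, and 2 of 5 and 6 of 16 for *miR-139-3p* against *miR-139-5p*. Members within the threshold that passed it under some alternative were *TFEB*, *LAMP1*, *LAMP2*, *SGSH*, *ASAH1*, *MAN2B1*, *CTSA*, *CTSB*, *PSAP*, *MCOLN1* and *ATP6V1D* for *miR-139-3p* against mock, and *SCARB2*, *IDS*, *CTSB* and *ATP6V1E1* for *miR-139-5p* against mock. For *miR-139-3p* against mock, higher members numbered 7 with normexp, 19 with quantile normalization, 5 with spike-in scaling and 4 without scaling, and a threshold of 1 left 1 lower and 3 higher. For *miR-139-5p*, 5 were lower with normexp, 5 were higher with spike-in scaling, and a threshold of 1 left 2 lower and 0 higher. For *miR-139-3p* against *miR-139-5p*, lower members numbered 2 with normexp, 3 with the percentile over detected probes, 13 with spike-in scaling and 10 without scaling. With spike-in scaling 6 were higher and the median was -0.23, and a threshold of 1 left 1 lower and 5 higher. Scalings other than quantile normalization shift every value of an array together, while the cause of the other moves was not tested. The number of arrays limits the precision, and dim probes such as those of *CTSS* and *MCOLN1* shrink toward 0 with normexp.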

Other observations

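Genes around the lysosome that belong to autophagy and to the control of *TFEB* also lay on both sides of mock. Of 38 autophagy genes, 38 had a value, and after *miR-139-3p* 10 were higher and 6 lower, or 26.3% and 15.8% next to 26.5% and 27.9% of all genes, with a median of 0.26 next to -0.05. The receptor *OPTN* was at 1.49, from 86.9 on the mock array to 211, and the receptor *SQSTM1*, p62, at 0.81, from 7644 to 11612. *ATG14* was at 1.36 from a dim probe of 5.49 on the mock array, and *GABARAPL1* was at 0.94 over 2 probes. The lower ones farthest from 0 were *ATG13*, of the initiating ULK complex, at -1.39 and *ATG4D* at -1.37. After *miR-139-5p*, 4 were higher and 2 lower, or 10.5% and 5.26% next to 10.7% and 12.3%, with a median of 0.04. *WIPI1*, which reads the phosphoinositide on forming autophagosomes, was at 1.38 after *miR-139-5p* and 0.35 after *miR-139-3p*. *ATG4D* was at -1.15, *ATG2B* at 0.82, *CALCOCO2* at 0.66, *RB1CC1* at 0.56 and *ATG13* at -0.55.

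Of 30 genes of the mTORC1 and calcineurin pathways that act on *TFEB*, 28 had a value. After *miR-139-3p*, 6 were higher, 1 of them *SESN3* by a bound of 0.55, and 6 lower, or 21.4% each way next to 26.5% and 27.9% of all genes, with a median of -0.21. The sestrins *SESN1*, at 2.87, and *SESN2*, at 1.24, hold back mTORC1 and are known p53 targets. *TSC1* was at 1.64, *FNIP1* at 1.60 and *RRAGD*, a Rag GTPase of the lysosomal surface, at 1.46, while *NPRL3*, a subunit of the GATOR1 complex, was at -1.96, from 1622 on the mock array to 362. After *miR-139-5p*, 5 were higher and 2 lower, or 17.9% and 7.14% next to 10.7% and 12.3%, with a median of -0.14, and *RRAGD* was at -0.87 with *CASTOR1* at 0.89, *FNIP2* at 0.80, *LAMTOR3* at 0.56, *NPRL2* at -0.54 and *FNIP1* at 0.53. Each of these values comes from 1 array per condition.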
